A study of Mus musculus with 4 samples.

Results

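S100 proteins and galectins are small soluble proteins whose mRNAs were followed here as a group of 10 genes, picked by symbol from the 23312 genes of the deposited tables: S100a4, S100a6, S100a8, S100a9, S100a10, S100a11, S100a13, Lgals1, Lgals3 and Lgals9. The set was put together because S100a4 and Lgals3 were strongly higher in one genotype, so the genotype difference of those 2 genes is given as a description without a test. RNA had been sequenced from pro-B cells, early B-lineage cells that assemble their immunoglobulin heavy chain genes, isolated as B220+CD43+ cells from the bone marrow of mice. The mice were C57BL/6 animals of 2 genotypes, Cnot3 fl/fl (loxP-flanked Cnot3) and Cnot3 +/+ (wild-type Cnot3), with 2 libraries per genotype from individual mice. All carried RERTCre, a Cre recombinase that tamoxifen activates, and all were given tamoxifen, 1 mg per injection, on days 1, 2, 4 and 7. Cells were taken on day 10. The CNOT3 protein belongs to CCR4-NOT, the main mRNA deadenylase complex, which removes poly(A) tails. Values below are given with replicate 1 before replicate 2 of each genotype's pair of libraries. RERTCre is known as a broadly expressed Cre, though the labels do not state its promoter, so deletion may not be limited to B cells. The controls carry Cre and tamoxifen too.

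S100 proteins are calcium-binding proteins of the EF-hand type that act inside cells on the cytoskeleton, membranes and annexins, and some of them are released as inflammatory signals. S100a8 and S100a9 together form calprotectin, an abundant protein of neutrophils and monocytes, and S100a10 pairs with annexin A2. Galectins bind beta-galactoside sugars on glycoproteins. In bone marrow, galectin-1 from stromal cells is known as a ligand of the pre-B cell receptor, and galectin-3 is abundant in macrophages and other myeloid cells.

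Levels are given as FPKM, fragments per kilobase of transcript and library size, a scale that allows genes to be compared per length. The depth in reads was not known from these values. Steps between low values placed the libraries' relative depth between 0.746 and 1 (an estimate), and 14684 to 15126 genes had a value above 0. Cnot3 itself was at 39.0 and 40.3 FPKM in the Cnot3 fl/fl pair and 41.6 and 39.3 FPKM in the Cnot3 +/+ pair, which overlap. This is a whole-gene value that does not check the genotype labels or the deletion. Cnot3 +/+ replicate 1 stood apart in sex-linked transcripts (Xist at 0.0242 FPKM, against 54.3 to 63.1 FPKM in the other libraries). Values without it are given for some members and related genes, but not for the cell type markers. B-lineage markers were present in all libraries, but the plasmacytoid dendritic cell marker Siglech reached 1114.5 to 1456 FPKM, a marker of a cell type other than pro-B cells. In such bulk samples fewer cells of a type and less RNA per cell cannot be told apart.

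All 7 S100 members lie on chromosome 3 and the promoters of 8 of the 10 were matched by symbol in RefSeq (build GRCm38.p6). Those of S100a4 and Lgals3 are shown because these were the members that were higher in Cnot3 fl/fl libraries, and that of S100a6 because it is the nearest neighbouring member of S100a4. Each is written 5′ to 3′ along the gene's strand, from 250 bases before the annotated start up to the first base of any exon annotated in GENCODE, with capitals marking a TATA box or CCAAT box.
S100a4, chr3:90603520-90603769, plus strand: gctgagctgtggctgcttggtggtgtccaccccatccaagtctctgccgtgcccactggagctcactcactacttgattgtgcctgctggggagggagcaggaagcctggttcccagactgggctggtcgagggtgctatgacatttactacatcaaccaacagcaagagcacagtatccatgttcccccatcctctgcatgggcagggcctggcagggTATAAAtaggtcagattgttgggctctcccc
Lgals3, chr14:47373610-47373812, plus strand: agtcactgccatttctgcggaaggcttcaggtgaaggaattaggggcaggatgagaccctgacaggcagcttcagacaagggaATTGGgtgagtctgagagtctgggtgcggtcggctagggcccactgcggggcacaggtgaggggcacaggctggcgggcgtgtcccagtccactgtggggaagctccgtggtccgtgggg
S100a6, chr3:90612644-90612881, plus strand: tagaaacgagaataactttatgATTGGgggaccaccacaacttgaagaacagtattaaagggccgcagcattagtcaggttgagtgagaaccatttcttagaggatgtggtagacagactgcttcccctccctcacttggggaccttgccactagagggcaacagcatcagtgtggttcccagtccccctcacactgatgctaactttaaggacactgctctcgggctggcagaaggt
The TATAAA letters of S100a4 began 31 bases before its start, and S100a8 had the same letters 30 bases before its own. A match on either strand was found in 12.4% of 32851 promoter windows of 250 bases and in 2 of the 8 member windows. Lgals3 had no TATAAA but held CCAAT on the opposite strand at 167 bases and GGGCGG (a GC box) at 7 bases before its start, the latter outside the printed stretch, and S100a6 held CCAAT on the opposite strand at 228 bases. CCAAT occurred in 33.8% and GGGCGG in 32.7% of all windows. The AP-1 letters TGANTCA, found in 6.75% of windows, occurred in S100a11 alone among the members, at 136 and 38 bases. The E-box letters CANNTG were in 7 of the 8 member windows and in 66.2% of all windows, and S100a4 was the member without them. GAGGAA, the core of sites for the myeloid and B-cell factor PU.1, was in S100a8, S100a11 and Lgals9 and in 23.3% of all windows. Both strands were searched for each of the 6 motifs, matches of different motifs may overlap, and these matches are descriptions of sequence, not of binding.

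All 10 members had at least 12.2 FPKM in every library, so all passed the filter of a mean of 1 FPKM and were among the 11017 genes tested. In Cnot3 +/+ libraries the order of mean levels was Lgals1, S100a6, S100a10, Lgals9, S100a11, S100a9, S100a13, S100a8, S100a4 and Lgals3, from 1485 down to 12.8 FPKM. The libraries of neighbours in that order overlapped for S100a6 and S100a10, for Lgals9 and S100a11, and for S100a9 and S100a13. In Cnot3 fl/fl libraries S100a4 and Lgals3 stood in places 6 and 7 instead of 9 and 10, above S100a9, S100a13 and S100a8. The level of Lgals3 there overlapped that of S100a9, and S100a9 overlapped S100a13. Lgals1 was first in both genotypes and ranked 22 of the 11017 tested genes in Cnot3 +/+ and 29 in Cnot3 fl/fl libraries.

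**Figure D1:**
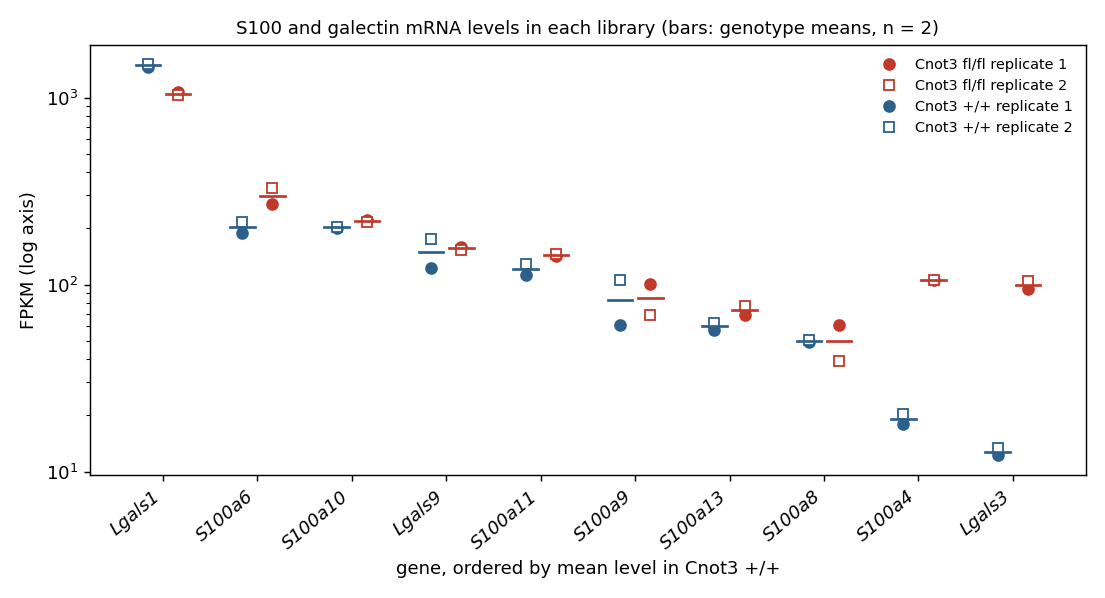
FPKM (log axis) of the 10 members in each of the 4 libraries, ordered by the mean in Cnot3 +/+; points are libraries and bars are genotype means (n = 2). S100a4 and Lgals3, lowest in Cnot3 +/+ at 19.1 and 12.8 FPKM, lie at 105.8 and 99.5 FPKM in Cnot3 fl/fl, whereas the libraries of S100a8, S100a9 and Lgals9 overlap between genotypes.

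S100a4, also called metastasin, binds non-muscle myosin and is expressed by many motile and myeloid cells. It was at 106.0 and 105.7 FPKM in the Cnot3 fl/fl pair and 17.9 and 20.4 FPKM in the Cnot3 +/+ pair. Both Cnot3 fl/fl libraries lay far above both Cnot3 +/+ libraries, and the 2 Cnot3 fl/fl values were 1.00-fold apart. The ratio of the means was 5.53, and the log2 fold change on the log2(FPKM + 1) scale was 2.41 (SE 0.09).

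Lgals3 encodes galectin-3, a chimeric galectin with a single carbohydrate-binding domain. Its values were 94.5 and 104.5 FPKM in the Cnot3 fl/fl pair and 12.2 and 13.3 FPKM in the Cnot3 +/+ pair. The genotypes again did not overlap, and the ratio of the means was 7.80, with a log2 fold change of 2.87 (SE 0.09). The mean difference in level was 86.7 FPKM for both genes, which lie on different chromosomes. By fold change Lgals3 ranked 16 and S100a4 ranked 21 among the tested genes, and 0.191% of these had a log2 fold change at or above that of S100a4. With each library left out in turn the log2 fold change stayed between 2.32 and 2.50 for S100a4 and between 2.80 and 2.94 for Lgals3. These 2 genes chose the set, so the ranks, SEs and ranges describe them and test nothing.

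The other 8 members had small differences, and none of them passed the test in limma, a linear model with variances moderated across genes, at a Benjamini-Hochberg adjusted p under 0.05 over all tested genes. Of all tested genes 6.22% passed as higher and 3.28% as lower. At an unadjusted p under 0.05, 3 of the 8 were higher and 1 lower, beside 2036 and 1686 of the 11017 tested genes. The authors' deposited table marked 0 of the 8 as significant, beside 446 of all tested genes as higher and 285 as lower. The median log2 fold change of the 8 was 0.10, against -0.01 over all tested genes. Both Cnot3 fl/fl libraries lay above both Cnot3 +/+ libraries in 4 of the 8 and below in 1, whereas 32.7% and 31.7% of all tested genes did so, 64.4% in either direction.

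S100a6, or calcyclin, is a calcium sensor expressed in proliferating cells and the nearest neighbouring member of S100a4. It was at 269.9 and 327.5 FPKM in the Cnot3 fl/fl pair and 189.5 and 215.8 FPKM in the Cnot3 +/+ pair. These did not overlap, and the log2 fold change of 0.55 had a 95% interval for this gene alone of 0.19 to 0.91, but the adjusted p was 0.071. In the authors' deposited table its q-value was 0.065. The adjusted p was 0.033 after quantile normalization. S100a4 stood at 0.393 and 0.323 times the level of S100a6 in Cnot3 fl/fl replicates 1 and 2, and at 0.0946 and 0.0943 times that level in Cnot3 +/+ replicates 1 and 2.

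S100a10, S100a11 and S100a13 were steady across libraries. S100a10, the partner of annexin A2, was at 220.6 and 217.5 FPKM in the Cnot3 fl/fl pair and 200.8 and 204.5 FPKM in the Cnot3 +/+ pair. Its log2 fold change of 0.11 had an interval of -0.10 to 0.32 (adjusted p = 0.39). S100a11, which binds annexin A1, was at 142.4 and 145.5 against 112.9 and 128.5 FPKM, with a log2 fold change of 0.25 (interval 0.00 to 0.51, adjusted p = 0.15). S100a13, known for the export of signal-less growth factors, was at 68.9 and 76.8 against 57.2 and 62.7 FPKM, with a log2 fold change of 0.28 (interval 0.03 to 0.53, adjusted p = 0.12). In all 3 the Cnot3 fl/fl libraries lay above the Cnot3 +/+ libraries, as in 32.7% of all tested genes. The differences were 8.07% to 21.5% on average, none of which passed the test.

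The libraries of the calprotectin genes overlapped between genotypes. S100a9 varied within both genotypes (1.47-fold in Cnot3 fl/fl and 1.73-fold in Cnot3 +/+), and S100a8 varied 1.56-fold in Cnot3 fl/fl but 1.03-fold in Cnot3 +/+. S100a8 was at 60.5 and 38.9 FPKM in the Cnot3 fl/fl pair and 49.2 and 50.5 FPKM in the Cnot3 +/+ pair. The Cnot3 fl/fl values lay on both sides of the Cnot3 +/+ values, with a log2 fold change of -0.04 (interval -0.60 to 0.53, adjusted p = 0.92). S100a9 was at 100.9 and 68.7 FPKM in the Cnot3 fl/fl pair and 60.8 and 105.4 FPKM in the Cnot3 +/+ pair, which overlap, with a log2 fold change of 0.06 (interval -0.78 to 0.90, adjusted p = 0.92). The sign of both depended on single libraries. Without Cnot3 fl/fl replicate 2 the log2 fold change of S100a8 was 0.27, and without Cnot3 +/+ replicate 1 that of S100a9 was -0.34. The ratio of S100a9 to S100a8 lay between 1.24 and 2.09 in the 4 libraries. Summed over 13 neutrophil markers the level was 82.2 and 60.8 FPKM in the Cnot3 fl/fl pair and 61.0 and 70.5 FPKM in the Cnot3 +/+ pair, so the genotypes overlapped there too. Of the 10 tested, 2 passed as higher, Elane and Ctsg, and 0 as lower, where 6.22% and 3.28% of all tested genes passed. The most abundant were Ngp, Camp and Lcn2, and Ngp, a neutrophil granule gene, was at 26.8 and 16.6 FPKM in the Cnot3 fl/fl pair and 23.1 and 26.0 FPKM in the Cnot3 +/+ pair. The part of neutrophil RNA in the S100a8 and S100a9 values was not tested.

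Galectin-1, the product of Lgals1, was the most abundant member and the only one of the 8 whose Cnot3 fl/fl libraries both lay below the Cnot3 +/+ libraries. Lgals1 was at 1071 and 1027 FPKM in the Cnot3 fl/fl pair and 1461 and 1508 FPKM in the Cnot3 +/+ pair. The mean in Cnot3 fl/fl was 70.7% of that in Cnot3 +/+, a log2 fold change of -0.50 (interval -0.86 to -0.15, adjusted p = 0.081). This was not called, except with a robust prior (adjusted p = 0.042). Lgals9, a galectin with tandem sugar-binding domains that is a ligand of the receptor TIM-3, was at 159.8 and 153.7 against 122.0 and 176.1 FPKM. These overlap, with a log2 fold change of 0.10 (interval -0.40 to 0.59, adjusted p = 0.75), and without Cnot3 +/+ replicate 1 it was -0.17.

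Added up, the 3 galectin members reached 1326 and 1285 FPKM in the Cnot3 fl/fl pair and 1595 and 1698 FPKM in the Cnot3 +/+ pair. The share of Lgals3 in that sum was 7.13% and 8.13% in Cnot3 fl/fl against 0.766% and 0.784% in Cnot3 +/+ libraries, and that of Lgals1 was 80.8% and 79.9% against 91.6% and 88.8%. The 7 S100 members summed to 969.0 and 980.5 FPKM in the Cnot3 fl/fl pair against 688.3 and 787.8 FPKM in the Cnot3 +/+ pair. S100a4 made up 10.9% and 10.8% of that sum in Cnot3 fl/fl libraries and 2.61% and 2.58% in Cnot3 +/+ libraries. Over all 10 members the sums were 2295 and 2266 against 2284 and 2485 FPKM, which overlap. Without S100a4 and Lgals3 the other 8 summed to 2094 and 2056 against 2253 and 2452 FPKM, which do not overlap. Lgals1 held the largest part of that sum, at 1071 and 1027 against 1461 and 1508 FPKM. Of the 8, 6 had a log2 fold change above 0 and 2 below, so the lower sum does not describe most of them. The shares of S100a4 and Lgals3 follow from how the set was picked and are a description only.

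**Figure D2:**
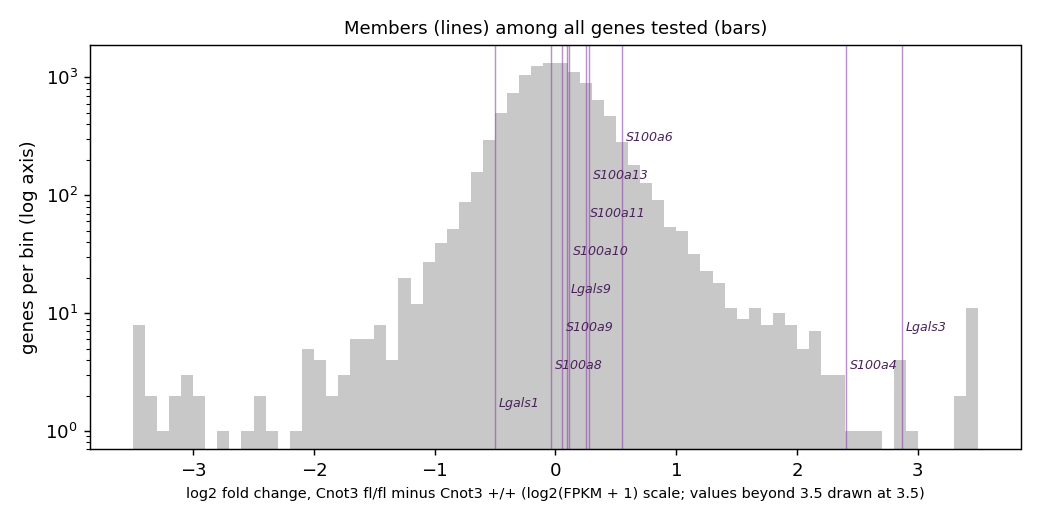
Histogram of the log2 fold change (Cnot3 fl/fl minus Cnot3 +/+, log2(FPKM + 1) scale) of the 11017 tested genes, on a log count axis, with the 10 members drawn as lines and values past the axis ends placed in the end bins. S100a4 at 2.41 and Lgals3 at 2.87 stand in the thin right tail, while the other 8 lie between -0.50 and 0.55.

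Position on the chromosome was not used to choose the members. In the locus column of the authors' deposited table (build mm9, with no statement of whether starts count from 0 or 1), 14 genes named S100a lie on chromosome 3. A run of 12 of them, from S100a1 to S100a9, spans 184.7 kb, and S100a11 and S100a10 lie 2.82 Mb further on. S100a4 (chr3:90407691-90409967) sits between S100a3 and S100a5, and S100a6 (chr3:90416815-90418336) starts 9.12 kb after it. S100a3 was listed at 0.0756 and 0.214 FPKM in the Cnot3 fl/fl pair and 0.191 and 0.0786 FPKM in the Cnot3 +/+ pair. S100a5 was at 0.308 and 0 against 0.379 and 0.155 FPKM. The genes flanking S100a4 were thus close to 0 in every library.

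Within 250 kb of the start of S100a4 there were 18 other genes, of which 10 were tested and 2 passed as higher, S100a1 and Ints3 (log2 fold change 0.45, adjusted p = 0.040), beside 6.22% of all tested genes. Lgals3 lies at chr14:47993534-48005842 (mm9). All 7 other genes within 250 kb of its start were tested, with log2 fold changes from -0.28 to 0.32, and 0 of them passed in limma. The next gene, Dlgap5, a mitotic spindle gene, was at 10.0 and 7.02 FPKM in the Cnot3 fl/fl pair and 4.90 and 12.0 FPKM in the Cnot3 +/+ pair, which overlap.

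**Figure D3:**
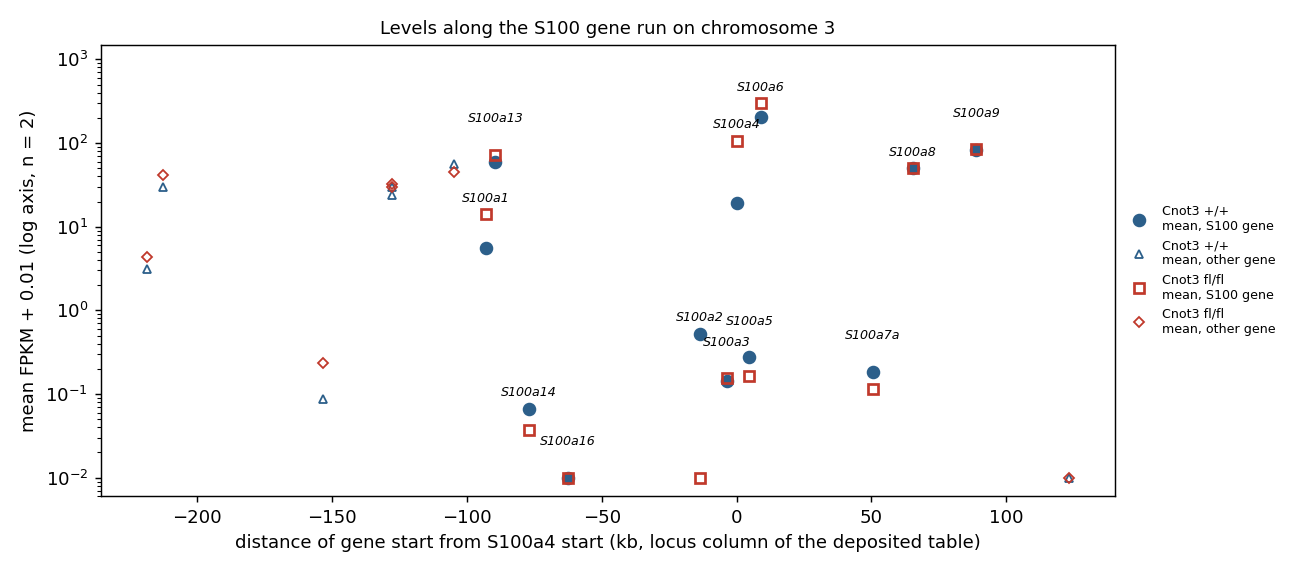
Mean FPKM plus 0.01 (log axis, n = 2) of each gene within 250 kb of S100a4 against the distance of its start from that of S100a4 in kb; for S100 genes filled circles are Cnot3 +/+ and open squares Cnot3 fl/fl, and for other genes triangles are Cnot3 +/+ and diamonds Cnot3 fl/fl. S100a4 and S100a1 show the widest gaps between genotypes among the 6 tested S100 genes of the run, and the neighbours S100a3 and S100a5 are near the bottom in both genotypes.

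The families hold other genes that the choice of members did not include. Of the 10 other S100 genes found, 9 were below the filter, 3 of them listed at 0 in all libraries, and S100a1 was tested. S100a1, best known as a regulator of calcium handling in muscle, rose from 6.10 and 5.02 FPKM in Cnot3 +/+ to 13.5 and 14.5 FPKM in Cnot3 fl/fl libraries. The libraries did not overlap, the ratio of the means was 2.52 and the log2 fold change was 1.20 (interval 0.88 to 1.52, adjusted p = 0.025). In the authors' deposited table its q-value was 0.032. With each library left out in turn its log2 fold change stayed between 1.08 and 1.32, but its adjusted p rose to between 0.080 and 0.21. In RefSeq S100a1 lies on the minus strand and S100a13 on the plus strand, so their starts face each other, across 104 bases in the locus column. S100a13 differed less than S100a1, and no source used here says whether the counting used strand. The level of S100a1 was 0.196 and 0.189 times that of S100a13 in Cnot3 fl/fl and 0.107 and 0.0801 times in Cnot3 +/+ libraries.

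Of the 7 other galectin genes found, 3 were tested and 0 passed in limma. At an unadjusted p under 0.05, 0 were higher and 1 lower, beside 2036 and 1686 of the 11017 tested genes. Lgals4, a gut-type galectin, was at 34.7 and 35.4 FPKM in the Cnot3 fl/fl pair against 32.8 and 30.7 FPKM in the Cnot3 +/+ pair. The near-identical Lgals6 was listed at no more than 0.000197 FPKM. In the authors' deposited table it had the same locus as Lgals4 (chr7:29618812-29626722), and how reads were divided between these names is not known. Lgals8 was at 23.3 and 23.3 FPKM in the Cnot3 fl/fl pair and 29.3 and 18.8 FPKM in the Cnot3 +/+ pair, which overlap. The galectin-related gene Lgalsl was at 0.563 and 0.597 against 1.76 and 1.55 FPKM, with a log2 fold change of -0.75 that did not pass (adjusted p = 0.058). The authors' deposited table gave it a q-value of 0.026 and marked it as significant.

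Annexins are calcium-dependent membrane-binding proteins, several of which are partners of S100 proteins. Of 12 annexin genes 8 were tested, and 4 rose, 0 fell and 4 did not pass, where 6.22% of all tested genes passed as higher. Their median log2 fold change was 0.56. Anxa5, which binds phosphatidylserine on dying cells, rose from 57.3 and 59.7 FPKM in Cnot3 +/+ to 94.1 and 110.5 FPKM in Cnot3 fl/fl libraries (log2 fold change 0.79, adjusted p = 0.036). Anxa6 rose from 157.3 and 148.4 to 253.7 and 244.2 FPKM (log2 fold change 0.70, adjusted p = 0.034). Anxa1, an anti-inflammatory annexin and partner of S100a11, rose from 12.4 and 13.3 to 22.1 and 19.7 FPKM (log2 fold change 0.66, adjusted p = 0.040), and Anxa9 from 4.51 and 3.66 to 7.19 and 7.12 FPKM (adjusted p = 0.045, and 0.054 with a minimum mean of 5 FPKM, which ends the call). In each of these both Cnot3 fl/fl libraries lay above both Cnot3 +/+ libraries, as in 32.7% of all tested genes. The authors' deposited table marked 2 of the tested annexins as significant, Anxa5 and Anxa6, with q-values of 0.0022 and 0.041. It marked 446 of the 11017 tested genes as significant and higher.

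Anxa2, the partner of S100a10, was at 172.5 and 139.4 FPKM in the Cnot3 fl/fl pair and 170.5 and 165.7 FPKM in the Cnot3 +/+ pair, which overlap (log2 fold change -0.12, interval -0.45 to 0.22, adjusted p = 0.56). Per length its mRNA stood at 0.641 to 0.849 times that of S100a10 in the 4 libraries. Anxa4 came close to the threshold (log2 fold change 0.46, adjusted p = 0.053), and Anxa11 and Anxa7 had 0.15 and 0.06. With any 1 library left out 0 annexins passed, in fits with fewer degrees of freedom in which between 2 and 18 of all tested genes passed as higher. The 4 log2 fold changes themselves stayed between 0.57 and 0.91.

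Receptors, ligands and glycosylation enzymes of the 2 families were listed as 16 genes, of which 15 were tested: 1 rose, 3 fell and 11 did not pass. The share of all tested genes that passed was 6.22% as higher and 3.28% as lower. The median log2 fold change of the 15 was -0.11. Lgals3bp, a secreted glycoprotein that binds galectin-3, rose from 90.6 and 104.4 to 139.5 and 156.5 FPKM (log2 fold change 0.60, adjusted p = 0.046). Mgat5, the enzyme that builds the branched N-glycans to which galectin-3 binds, fell from 15.4 and 12.9 to 8.07 and 8.004 FPKM (log2 fold change -0.74, adjusted p = 0.041). Bsg, encoding basigin, a receptor described for S100a9, fell from 175.7 and 172.7 to 123.2 and 130.7 FPKM (log2 fold change -0.45, adjusted p = 0.043). Lamp1, a lysosomal glycoprotein bound by galectins, fell from 152.9 and 158.4 to 119.0 and 118.4 FPKM (log2 fold change -0.39, adjusted p = 0.049), a call lost under quantile normalization (adjusted p = 0.053). Only Mgat5 among the 15 was marked as significant in the authors' deposited table, with a q-value of 0.024. That table marked 285 of the 11017 tested genes as significant and lower. With any 1 library left out 0 of the 15 passed.

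Ager and Tlr4, receptor genes for released S100 proteins, were at low levels, unlike Bsg. Ager, which encodes RAGE, was at 1.25 and 1.10 FPKM in the Cnot3 fl/fl pair and 1.28 and 1.87 FPKM in the Cnot3 +/+ pair, and Tlr4 was below the filter, between 0.509 and 0.988 FPKM. Havcr2, which encodes TIM-3, the receptor of galectin-9, was at 4.44 and 3.37 against 1.92 and 2.09 FPKM, with a log2 fold change of 0.70 that did not pass (adjusted p = 0.063). Spn, which encodes the CD43 antigen used for sorting and is a galectin-1 ligand, was at 226.6 and 213.6 against 186.6 and 177.4 FPKM (log2 fold change 0.27, adjusted p = 0.11).

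**Figure D4:**
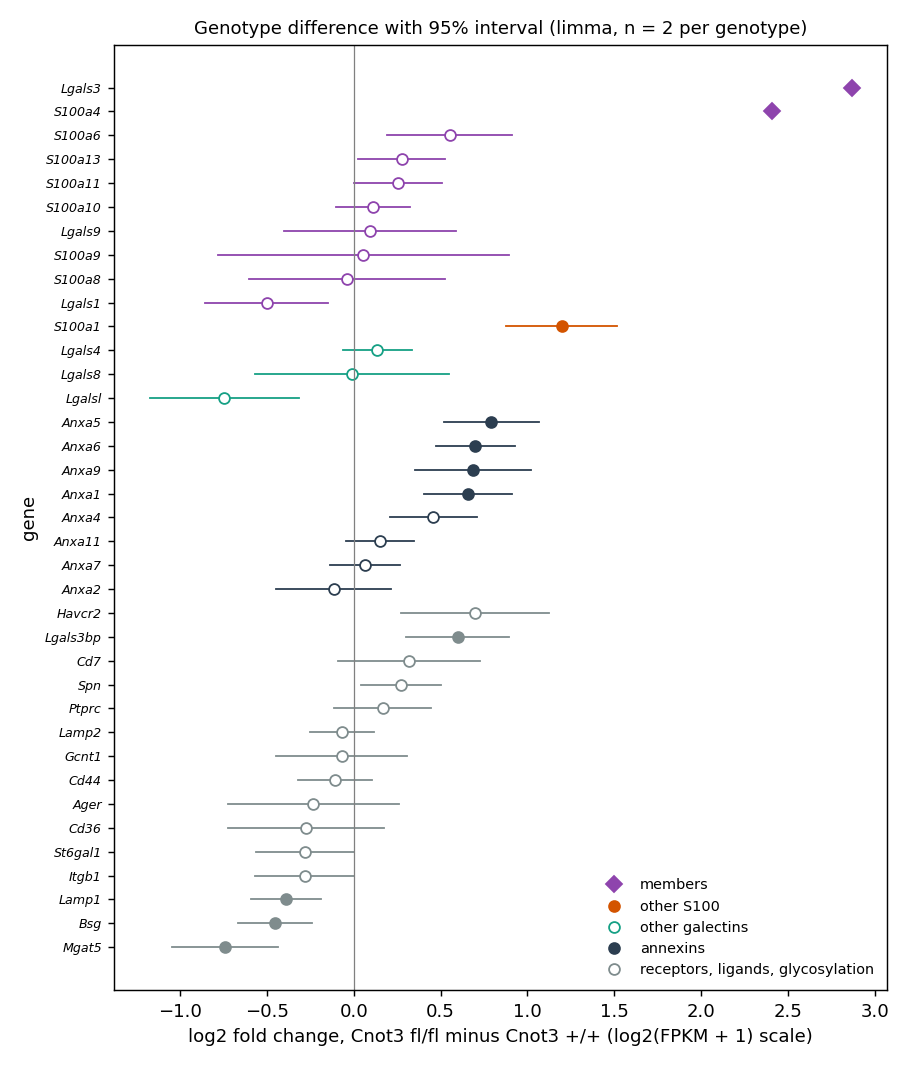
Log2 fold change (Cnot3 fl/fl minus Cnot3 +/+, log2(FPKM + 1) scale) with its 95% limma interval for the members and the tested genes of the related lists; filled points passed at an adjusted p under 0.05, open points did not, and the diamonds are S100a4 and Lgals3, shown without a test. S100a1, 4 annexins and Lgals3bp are filled on the right and Lamp1, Bsg and Mgat5 on the left.

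The genes whose profiles over the 4 libraries were most like those of S100a4 and Lgals3 were found by the root mean square difference of log2(FPKM + 1) values, each gene centred on its own mean. For S100a4 they were Lrrc15, Actn1 and Cx3cr1, at 0.10, 0.10 and 0.14 on the log2 scale. Actn1, which encodes the actin cross-linker alpha-actinin-1, was at 64.9 and 63.7 FPKM in the Cnot3 fl/fl pair and 10.6 and 14.4 FPKM in the Cnot3 +/+ pair. Cx3cr1, a chemokine receptor gene of monocytes and dendritic cells, was at 10.2 and 10.9 against 1.27 and 1.89 FPKM. For Lgals3 they were Pira6, Lrrc15 and Cd8a, at 0.11, 0.18 and 0.23. Pira6 was at 7.73 and 7.11 FPKM in the Cnot3 fl/fl pair and 0.0612 and 0.307 FPKM in the Cnot3 +/+ pair. Lrrc15 was at 8.02 and 9.59 against 0.593 and 0.821 FPKM, and Cd8a at 129.4 and 134.7 against 15.7 and 25.7 FPKM. Both Pira6 and Lrrc15 were below 1 FPKM in Cnot3 +/+, where the added 1 FPKM narrows folds. Their ratios of means were 40.4 and 12.5, so their likeness is that of log2(FPKM + 1) values, not of ratios. Lgals3 and S100a4 differed from each other by 0.24, which put S100a4 in place 4 among the genes nearest to Lgals3 and Lgals3 in place 20 among those nearest to S100a4. Both were picked because they were higher in Cnot3 fl/fl, so this nearness follows from the choice and supports nothing. The genes listed as most like them were found by the same values, so their nearness is a description only.

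Markers of other cells that express S100 proteins and galectins were present in these libraries. Over 11 monocyte and macrophage markers the summed level was 480.4 and 526.7 FPKM in the Cnot3 fl/fl pair and 353.6 and 340.2 FPKM in the Cnot3 +/+ pair, and 3 of the 8 tested passed as higher, Itgam, Cd14 and Ms4a6c, and 0 as lower, beside 6.22% and 3.28% of all tested genes. The most abundant of the list, Cd68 and Ccr2, were at 283.2 and 351.7 against 253.3 and 252.8 FPKM and at 78.0 and 72.4 against 55.4 and 28.2 FPKM, and neither passed. Ms4a6c, a monocyte surface gene, rose from 16.95 and 20.4 to 71.7 and 64.2 FPKM, a 3.64-fold change of the mean, while Lyz2, encoding the lysozyme of monocytes and neutrophils, was at 27.2 and 21.2 against 18.6 and 26.0 FPKM. Fcgr1 and the macrophage marker Emr1 were at or below 1.27 FPKM in every library. Over 10 classical dendritic cell markers the sum was 603.5 and 766.6 against 505.9 and 523.6 FPKM, with 3 of 9 tested higher, Zbtb46, Clec9a and Cx3cr1, and 1 lower, Clec10a, again beside 6.22% and 3.28% of all tested genes. Cx3cr1 was also found above by its likeness to S100a4, and the list was chosen with earlier results known. The count of this list is therefore a description only. Clec10a, Flt3 and Itgax were the most abundant of the list, and Flt3 (log2 fold change 0.61, adjusted p = 0.060) and Itgax (0.64, adjusted p = 0.056) did not pass. Zbtb46, the defining factor of classical dendritic cells, rose from 0.715 and 0.599 to 3.82 and 4.19 FPKM, and Xcr1 was between 0.126 and 0.1497 FPKM.

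Over 12 plasmacytoid dendritic cell markers the summed level was between 7996 and 9490 FPKM and overlapped between genotypes, with Bst2, Irf8 and Siglech as the most abundant. Of these markers 1, Tlr7, passed as higher and 1, Cox6a2, as lower, beside 6.22% and 3.28% of all tested genes. The 13 B-lineage markers summed to 843.9 and 815.6 FPKM in the Cnot3 fl/fl pair and 1073 and 1458 FPKM in the Cnot3 +/+ pair, with 6 lower and 0 higher, beside 3.28% and 6.22% of all tested genes. Those that fell included the surrogate light chain genes Vpreb1 (log2 fold change -3.31), Igll1 (-2.77) and Vpreb3 (-2.41), the B-cell factor gene Pax5 (-1.26) and Cd79a (-1.001). Dntt, Cd79b and Blnk, the most abundant of that list, did not pass. Sums over the T and NK cell list and the erythroid list overlapped between genotypes, at 722.5 to 1002 and 21.7 to 62.5 FPKM, with Ccl5, Nkg7 and Klrd1, and Hba-a1, Hbb-b1 and Ermap, as the most abundant. In the former 1 gene, Cd5, passed as higher, and in the latter 0 of 2 tested passed, also at an unadjusted p under 0.05. No marker that matched a row was listed at 0 in all 4 libraries. The listed names Ly6g and Adgre1 matched no row, while Emr1 did. The monocyte and the classical dendritic cell sums moved in the same direction as S100a4, Lgals3, S100a1 and the annexins that rose, and the B-lineage sum in the same direction as Lgals1. The part of other cell types in these differences was not tested.

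**Figure D5:**
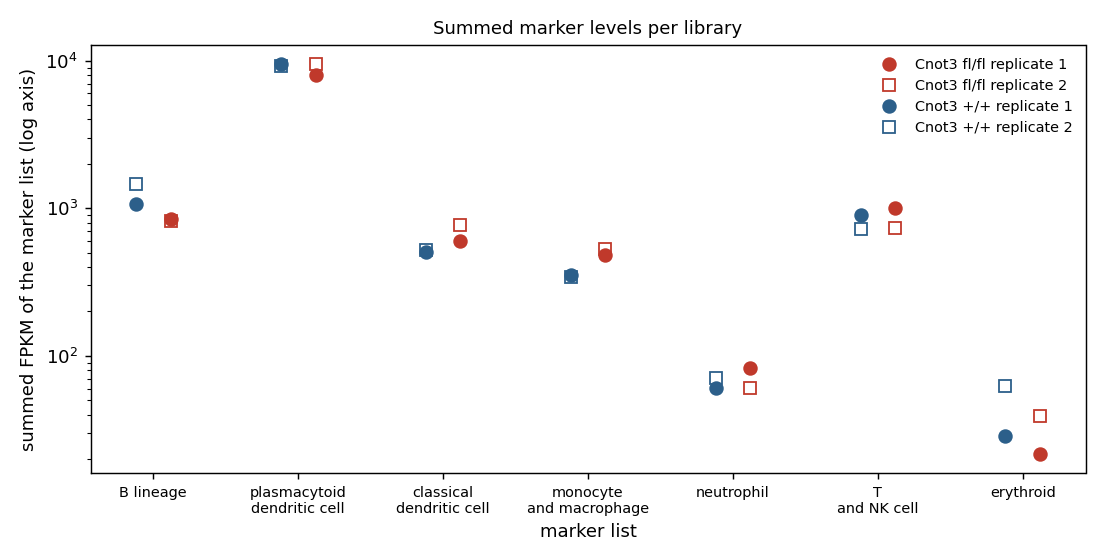
Summed FPKM (log axis) of each marker list in the 4 libraries; red points are Cnot3 fl/fl and blue points Cnot3 +/+ libraries. The Cnot3 fl/fl libraries lie above the Cnot3 +/+ libraries for the monocyte and macrophage list and the classical dendritic cell list, below them for the B-lineage list, and overlap them for the other 4 lists.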

How the data were processed

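RNA from B220+CD43+ bone marrow cells was sequenced in 4 libraries, 2 per genotype. Per the labels' protocols, libraries were made with a stranded mRNA kit and 15 PCR cycles. The submitters' processing notes name TopHat2 2.0.13, Bowtie2 2.2.3.0, Cufflinks 2.2.1, Cuffnorm 2.2.1 and build mm9. Their settings, the annotation and the scaling across libraries were not given in the sources used here. Per the file headers, the authors deposited FPKM per library, and a table comparing genotypes by FPKM, p-value and q-value. The series text speaks of individual mice, and p-values measure only the spread between these libraries.

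Values were taken as log2(FPKM + 1). Genes averaging 1 FPKM or more over the libraries (11017) entered limma 3.58.1, run in R 4.3.3 (eBayes with trend, two-sided, genotype as the only term, Benjamini-Hochberg adjustment over all tested genes, threshold 0.05). The fit had 2 residual and 2.69 prior degrees of freedom, and was tried on simulated data. Their variances were drawn from the fitted prior itself, so the simulation does not check the assumptions of the fit. An exact permutation test of 2 against 2 libraries gives no p below 0.333. Fold changes on this scale understate those of low genes. SE is limma's, and intervals are 95% for single genes, unadjusted. Depth ratios came from values under 0.3 FPKM, where the commonest ratio between libraries held for 8.68% to 12.1% of genes. The members and gene lists were chosen with earlier results of these data known. The text names all members, every other S100 or galectin gene above the filter, annexins, receptors and ligands that passed or had the smallest p, the leading markers of other cells, and the 3 genes most like S100a4 and Lgals3. S100a3, S100a5, Ints3, Anxa4, Havcr2, Zbtb46, Clec9a, Elane, Ctsg, Itgam, Cd14, Tlr7, Cox6a2, Cd5, Vpreb1, Igll1, Vpreb3, Pax5, Cd79a, Dlgap5, Ager, Tlr4, Spn, Lgals6, Anxa2, Anxa7, Anxa11, Lyz2, Fcgr1, Emr1 and Xcr1 were added after their values were seen. The listed names S100a7l2, 1110067D22Rik, Ly6g (neutrophil list) and Adgre1 (monocyte and macrophage list) matched no row. Alternatives were other pseudocounts, filters, scalings and priors, the replicate block, and leaving out each library.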

Additional observations from a re-analysis of the deposited data

How the results depend on the processing

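With 2 libraries per genotype the number of calls depended strongly on the setting. The count of genes higher and lower, 685 and 361, was 4 and 1 with no filter on low values, 242 and 69 without the mean-variance trend and, for higher genes, 456 with the replicate block. With single libraries left out it ranged from 2 to 18 and from 0 to 13. Annexins passing as higher numbered 4, but 0 with no filter, 1 without the trend, 3 with the replicate block (Anxa9 lost, adjusted p = 0.053) and 0 to 0 with a library left out. Receptors and ligands passing numbered 1 higher and 3 lower, but 0 and 0 with no filter or without the trend, 2 lower with quantile normalization (Lamp1 lost), 1 lower with the replicate block (Bsg and Lamp1 lost, adjusted p = 0.055 and 0.064), and 0 to 0 with a library left out. S100a1 did not pass with no filter (0 other S100 or galectin genes higher) or with any library left out, and 1 gene, Lgalsl, passed as lower without the trend and with a robust prior. Among the 8 members other than S100a4 and Lgals3, S100a6 passed with quantile normalization (log2 fold change 0.61) and with the replicate block (0.55, adjusted p = 0.049), and Lgals1 with a robust prior (-0.50), so 1 member was called in each of these. A pseudocount of 5 gave 2.2003 for S100a4 and 2.56 for Lgals3. Same-numbered libraries' deviations had a correlation of 0.14 across genes in a single comparison of 2 pairs, and the labels do not pair the mice. Quantile normalization gave Lgals1 -0.32.

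With a library left out, the log2 fold changes ranged from -0.35 to 0.27 for S100a8 and from -0.34 to 0.45 for S100a9 (-0.22 when Cnot3 fl/fl replicate 1 was dropped and -0.34 for Cnot3 +/+ replicate 1). They ranged from -0.17 to 0.36 for Lgals9, from -0.32 to 0.30 for Lgals8, from -0.27 to 0.037 for Anxa2 and from -0.21 to 0.068 for Gcnt1 (0.01 without Cnot3 +/+ replicate 1). These changed sign. Those of the other members did not. The cause of each lost or gained call was not tested, other than that leaving out a library lowers the degrees of freedom and dropping the filter raises the number of genes tested to 16296.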
